A study of Mus musculus with 6 samples.

Results

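Psca, Ly6a, Ly6d, Ly6e, Ly6g6c, Lypd2, Lypd3 and Lynx1 are 8 genes of the Ly6/uPAR family, out of 32285 genes measured in single cells of mouse esophageal organoids. They were chosen by name as a family, with their levels in these libraries already known, and no threshold on a value was applied. Basal cells of the esophageal epithelium of C57BL6 mice, positive for integrin-b1 and excluding DAPI, were sorted by the dye Cyto-ID, which stains autophagic vesicles, into a Cyto-ID Low and a Cyto-ID High population. Both populations were then grown as organoids in Matrigel for 15 days, in the same medium with EGF, Noggin, R-Spondin and the kinase inhibitor Y27632, before single cells were captured. Each population gave 3 libraries, labelled F2, M3 and F6 in both, and libraries of the same label are called a pair below. The Cyto-ID labels therefore describe the founding cells and not the cells that were sequenced. Nothing in the labels says that F2, M3 and F6 were separate animals, and p-values measure the spread between these libraries, which may in part be technical.

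Ly6/uPAR proteins share a compact disulfide-bonded domain with finger-like loops. Most are held at the outer face of the plasma membrane by a glycosylphosphatidylinositol (GPI) anchor, and some are secreted. In stratified squamous epithelia such as the esophagus, cells divide in the basal layer, move up through suprabasal layers and are shed from the superficial layer. Several family members serve as surface markers along that path, and several bind nicotinic acetylcholine receptors or take part in cell adhesion.

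Of 26808 barcodes, 25154 had at least 500 detected genes and were kept, 2667 to 5617 in each library. Their median depth was 1940.5 to 10038 UMIs (unique molecular identifiers, each standing for 1 captured RNA molecule) per cell. The deepest library, Cyto-ID High F2, and the shallowest, Cyto-ID High F6, were both in the High group. In all, 67 barcodes occurred in more than 1 library, of which 3, 7 and 8 were shared within the pairs F2, M3 and F6. Markers of other cell types were low: the highest was Itgam, with at most 5.57 UMIs per 1000000 (counts per 1000000, CPM) in any library, and the leukocyte gene Ptprc was at 0. All levels below are the mean over cells of each cell's CPM, and each UMI counts 1 molecule from its 3′ end.

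Of the 8 genes, 6 lie together on mouse chromosome 15. In GENCODE vM21 (build GRCm38) this group runs over 283.2 kb from chr15:74714839 to 74998031. It begins with Psca (chr15:74714839-74717069, plus strand, 3 exons). Lypd2 (chr15:74732247-74734329), Lynx1 (chr15:74747852-74753046) and Ly6d (chr15:74762056-74763620) follow on the minus strand. Ly6e (chr15:74955051-74959905, plus strand) and Ly6a (chr15:74994877-74998031, minus strand) close it. Ly6g6c lies on chr17:35065388-35070050 and Lypd3, with 5 exons, on chr7:24636550-24641118, both on the plus strand. Ly6g6c overlaps Mpig6b on the opposite strand by 797 bases, and Lypd3 overlaps the antisense gene Gm26550 by 1367 bases. Whether strand was used in counting is not stated in the sources used here. Among 50-base words of the last 500 bases of each transcript, 8.13% of those of Ly6a also occurred in Ly6c1, Ly6c2, Ly6i or I830127L07Rik, so a small part of its reads may be shared with these. The other 7 genes had no such word in common with another gene.

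The promoters of Lypd3 and Ly6g6c are shown because promoter sequences were at hand for these 2 of the 8 genes only. The 2 genes, on different chromosomes, had their highest level in the same cluster of cells in all 6 libraries (below). Both are the 250 bases before the RefSeq start in build GRCm38.p6, 5′ to 3′ on the plus strand, at chr7:24636320-24636569 and chr17:35067075-35067324.
Lypd3: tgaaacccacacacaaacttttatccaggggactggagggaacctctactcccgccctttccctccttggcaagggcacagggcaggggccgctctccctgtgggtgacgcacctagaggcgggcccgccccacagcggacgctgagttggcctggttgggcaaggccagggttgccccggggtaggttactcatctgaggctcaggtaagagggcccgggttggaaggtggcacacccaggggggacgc
Ly6g6c: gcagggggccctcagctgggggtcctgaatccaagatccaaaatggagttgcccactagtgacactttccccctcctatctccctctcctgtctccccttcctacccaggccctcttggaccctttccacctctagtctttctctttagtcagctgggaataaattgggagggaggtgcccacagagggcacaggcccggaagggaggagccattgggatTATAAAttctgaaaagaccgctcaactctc
Capitals mark the letters TATAAA, which the Ly6g6c promoter held 30 to 25 bases before the start and which 12.4% of 32851 mouse promoters of that length held. Searches on both strands for TGANTCA (the AP-1 motif, in 6.75% of promoters), CCNCNCCC (a KLF motif, 45.9%) and GGAATG (the TEAD motif, 12.6%) matched neither sequence, and TATAAA was not found in that of Lypd3. Guanine and cytosine made up 65.2% of the Lypd3 sequence and 55.2% of that of Ly6g6c. The last 20 bases of the Lypd3 window lie within an exon of the GENCODE annotation. The Ly6g6c window lies inside the GENCODE gene, which starts at chr17:35065388, with 0 bases in its exons. The tables used here held promoters for these 2 of the 8 genes.

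To ask which layer each gene marked, the cells were clustered without the 8 genes and the clusters were named from markers of basal, proliferating, suprabasal and superficial cells. Clusters are called here by their leading gene. Those led by Btn1a1, U90926 and Igfbp2 were basal-like (4922, 2955 and 2142 cells), and those led by Birc5 and Mcm3 were proliferating-like (2421 and 1186 cells). The Calm4 cluster (1965 cells) was suprabasal-like, and the Il33 and Sprr2f clusters (3378 and 2675 cells) were superficial-like. The name of the Il33 cluster is a mixed one: none of its 10 leading genes was a superficial marker, and its suprabasal markers summed to 21830 CPM, between the 11362 CPM of the Sprr2f cluster and the 26316 CPM of Calm4. Its superficial markers summed to 14381 CPM, against 29079 CPM in Sprr2f and 4465 CPM in Calm4. The basal-like name has a like limit: none of the 10 leading genes of its 3 clusters was a basal marker. The basal markers summed to 17910, 14935 and 21330 CPM in Btn1a1, U90926 and Igfbp2, but also to 22157 CPM in Krt12 and 17979 CPM in Calm4. The Krt12 cluster (3171 cells) stayed unnamed. Its mean log2 ratio of markers to all other cells was below 0 for basal (-0.67), proliferating (-1.30), suprabasal (-0.34) and superficial (-1.47) markers. Names were given from that mean and not from the sums above. A last cluster of 339 shallow cells led by Ifit3b was also unnamed and is left out of the levels by cluster below. It does enter the shares of summed CPM. It also enters the values of r below through Low F2, Low M3 and High F2, where it had 105, 97 and 125 cells. Levels by cluster are descriptions with no test, since the genes that formed the clusters vary with the members.

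The family divided by layer. Psca and Ly6a peaked in the Sprr2f cluster, Lypd3 and Ly6g6c in the Calm4 cluster, and Ly6d was high in the Il33, Krt12 and Calm4 clusters alike. Ly6e and Lynx1 were highest in the 2 superficial-like clusters by smaller margins. None of the 7 measurable genes had its highest mean level in a basal-like or proliferating-like cluster, and in single libraries this was seen once, for Ly6e in the U90926 cluster.

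**Figure D1:**
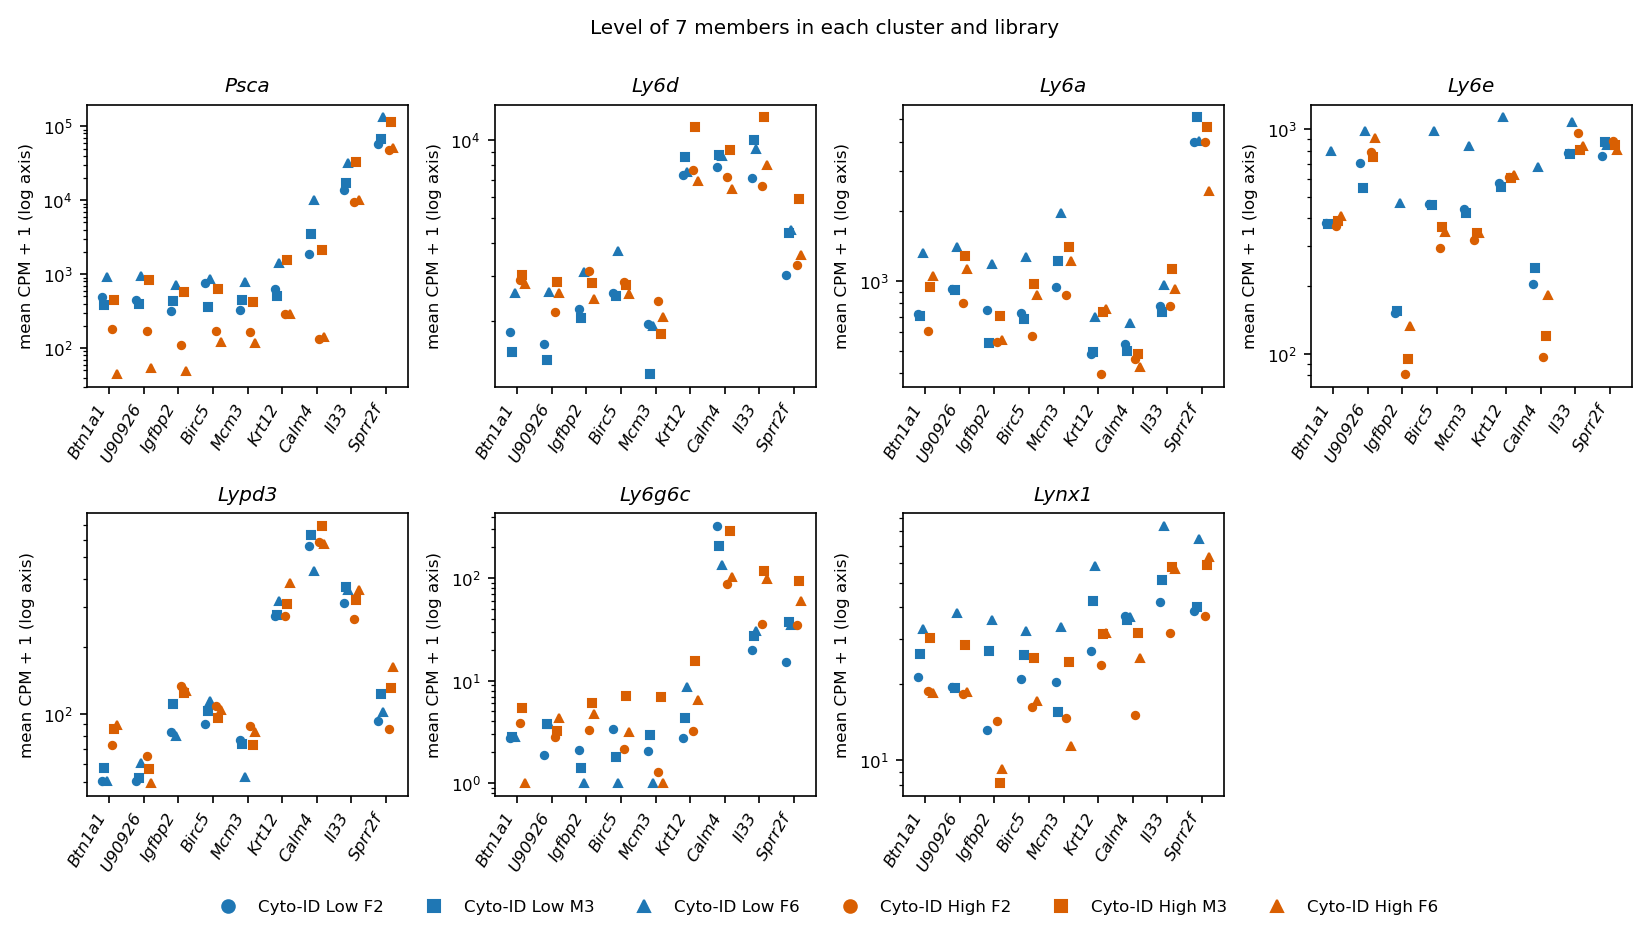
Mean CPM plus 1 (log axis) of 7 members in each of 9 clusters, with 1 point per library: circles, squares and triangles are F2, M3 and F6, blue is Cyto-ID Low and orange Cyto-ID High. Psca spans from 43.0 CPM in a basal-like cluster to 131645 CPM in the Sprr2f cluster, and Lypd3 and Ly6g6c are highest in the Calm4 cluster in all 6 libraries.

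Psca, named for the prostate and known from the differentiated lining of stomach, bladder and esophagus, had the widest range. In the Sprr2f cluster its level was 57377, 67089 and 131645 CPM in Low F2, M3 and F6, and 47504, 115258 and 50400 CPM in High F2, M3 and F6. Psca alone thus made up 4.75% to 13.2% of a cell's UMIs on average in that cluster, and 0.316% to 2.50% over all cells of a library. It was lower in the Il33 cluster, at 19162 ± 10673 CPM (SD, n = 6 libraries), in all 6 libraries. The Calm4 cluster followed with a mean of 2966 CPM, but its libraries ran from 132 to 10083 CPM.

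In the other 6 clusters Psca averaged 365 to 774 CPM. The Sprr2f cluster held 70.0% of the summed Psca CPM of a library on average (60.4% to 78.2%) and the Il33 cluster 23.7%. In the Btn1a1 cluster the level was 1.36% to 4.28% of its library's mean, and that of Sprr2f, a marker of superficial cells, was 1.01% to 8.27% of its own. Free RNA from lysed superficial cells adds UMIs to every droplet, and its part in the low levels of Psca in basal-like cells was not tested. A UMI of Psca was found in 26.7%, 28.9% and 59.8% of basal-like cells of Low F2, M3 and F6 when every cell was thinned to 1000 UMIs, and in 11.9%, 33.0% and 3.81% of those of High F2, M3 and F6. Without thinning these shares were 85.9%, 78.3% and 83.2%, and 64.3%, 52.1% and 6.82%.

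Ly6a, the Sca-1 antigen used to isolate mouse hematopoietic stem cells, shared the Sprr2f peak but was present in every cluster. Its level in the Sprr2f cluster was 3968, 5092 and 4022 CPM in the Low libraries and 3985, 4615 and 2443 CPM in the High libraries, each the highest of its library. All other clusters lay well below, from 1270 ± 396 CPM (SD, n = 6) in the Mcm3 cluster and 1073 ± 235 CPM in the U90926 cluster to 509 ± 82.1 CPM in the Calm4 cluster. Mcm3 was above U90926, and U90926 above Btn1a1, in 6 of 6 libraries each. The Krt12 and Calm4 clusters shared the lowest place, each in 3 libraries. These 2 clusters were high in Lypd3 and Ly6d, but the Il33 cluster, also high in both, held 883 CPM of Ly6a, near the 889 CPM of Btn1a1. The r of Ly6a was -0.35 with Lypd3 and -0.19 with Ly6d over 57 values, one for each library and cluster with at least 20 cells.

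Ly6d, a keratinocyte surface antigen that is also used to stage early B cells, was abundant in every cluster, with at least 1249 CPM in each library. It averaged 8841 ± 2055 CPM (SD, n = 6) in the Il33 cluster, 8196 ± 1547 CPM in the Krt12 cluster and 7992 ± 1038 CPM in the Calm4 cluster. These 3 means differed by less than their spread, and the highest of them changed with the library, being Il33 in 4 libraries, Krt12 in 1 and Calm4 in 1. The Sprr2f cluster was below all of these, at 4107 ± 1050 CPM, in 6 of 6 libraries. The basal-like and proliferating-like clusters held 1898 to 2819 CPM on average, with Mcm3 the lowest in 4 libraries. Ly6d was among the 10 leading genes of the Krt12 cluster although it had been kept out of the clustering.

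Lypd3, a relative of the urokinase receptor known as C4.4A and as a suprabasal protein of squamous epithelium, peaked in the Calm4 cluster. There it was 558, 627 and 435 CPM in the Low libraries and 585, 689 and 574 CPM in the High libraries, each the highest of its library. The Il33 cluster (330 ± 39.0 CPM) and the Krt12 cluster (305 ± 42.1 CPM) came next and were within each other's spread. It was lower in the Sprr2f cluster, at 115 ± 28.1 CPM, and lowest in the U90926 cluster, at 54.6 ± 6.38 CPM, in 5 of 6 libraries. The Calm4 cluster held 22.4% of its summed CPM and the Il33 cluster 26.5%.

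Ly6g6c, a gene of the class III region of the major histocompatibility complex, was low outside 3 clusters. It reached 323, 206 and 133 CPM in the Calm4 cluster of the Low libraries and 86.8, 290 and 103 CPM in that of the High libraries, the highest cluster in 6 of 6. The Il33 and Sprr2f clusters averaged 54.1 and 44.9 CPM, and the other 6 clusters at most 5.84 CPM. The Calm4 cluster held 45.4% of the summed CPM (16.5% to 62.7%). The 1965 cells of the Calm4 cluster held 3147 UMIs of Ly6g6c. In a finer clustering (resolution 1) it was among the 10 leading genes of a suprabasal-like cluster of 396 cells. Even in the Calm4 cluster only a minority of cells had a UMI, 11.1% to 24.5%, against 0% to 1.15% in the Btn1a1 cluster. The part of free RNA in these shares was not tested. After thinning to 1000 UMIs the shares in the Calm4 cluster were 4.95% to 12.7%.

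Ly6e, an interferon-stimulated gene whose product affects the entry of viruses, was highest in the Il33 cluster (873 ± 121 CPM, SD, n = 6), the Sprr2f cluster (836 ± 48.6 CPM) and the U90926 cluster (778 ± 153 CPM). These 3 were not separated beyond their spread. The basal-like clusters differed in Ly6e, with 778 CPM in U90926, 452 ± 168 CPM in Btn1a1 and 180 ± 145 CPM in Igfbp2, the lowest cluster in 6 of 6 libraries. The Calm4 cluster, at 252 ± 213 CPM, was above Igfbp2 in 6 of 6 libraries and below the other 7 in the mean.

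Lynx1, which binds nicotinic acetylcholine receptors and dampens their response, was low everywhere. It averaged 52.8 ± 17.6 CPM (SD, n = 6) in the Il33 cluster and 51.0 ± 15.5 CPM in the Sprr2f cluster, each the highest in 3 libraries. The other clusters lay between 16.9 CPM (Igfbp2) and 34.7 CPM (Krt12), with neighbours in that order inside each other's spread. Lypd2 was close to absent, with 10 UMIs in 8 of 25154 cells, or 0.0318% (95% exact Clopper-Pearson interval 0.0137% to 0.0627%, counting error only). Of these UMIs, 3, 3 and 0 fell in Low F2, M3 and F6 and 1, 3 and 0 in High F2, M3 and F6. It reached the filter of no comparison, so that at most 7 of the 8 genes were tested in each.

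**Figure D2:**
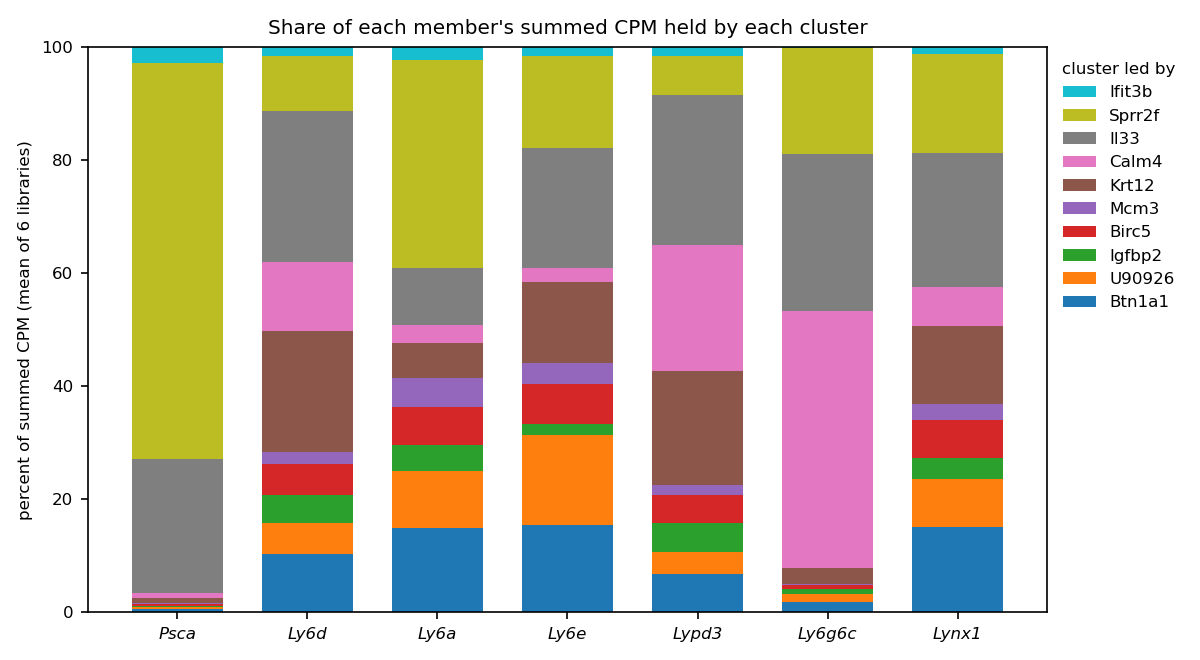
Share of each member's summed CPM that each cluster held, as a percentage averaged over 6 libraries, with 1 bar per gene and 1 colour per cluster, the Ifit3b cluster included. The Sprr2f cluster holds 70.0% for Psca and 36.7% for Ly6a, and the Calm4 cluster holds 45.4% for Ly6g6c and 22.4% for Lypd3.

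Members that peaked together were compared over the same 57 values of log2(CPM + 1), each centred on its library. The points share libraries and clusters, so r is a description. Ly6d and Lypd3 had the highest r of any pair (0.92), followed by Psca and Lynx1 (0.72), Ly6g6c and Lypd3 (0.70), Ly6d and Ly6g6c (0.66) and Psca and Ly6a (0.65). Ly6d and Lypd3 lie on chromosomes 15 and 7. Within the chromosome 15 group, Lypd2 aside, r ran from -0.19 (Ly6d and Ly6a), the only negative value there, to 0.72 (Psca and Lynx1). Between chromosomes it ran from -0.35 (Ly6a and Lypd3) to 0.92. The part of physical distance was not tested.

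The genes most like each member, among those averaging 10 CPM or more over the libraries, were taken by the same r. For Psca these were Mal, a membrane protein of apical sorting (0.97), AA467197 (0.97) and the membrane mucin Muc4 (0.96). For Ly6d they were the keratin gene Krt6a (0.94), the differentiation factor Zfp750 (0.93) and Lypd3 itself (0.92). For Lypd3 they were Cyp4f39 (0.96), the trafficking GTPase Rab25 (0.95) and the suprabasal secreted protein Dmkn (0.95). For Ly6e they were the adhesion molecule Epcam (0.97), the simple epithelial keratin gene Krt18 (0.94) and Srd5a1 (0.93). Ly6a had Anxa11 (0.88), Csnk1e (0.88) and Hilpda (0.87), Ly6g6c had Tmem45b (0.86), Cst6 (0.86) and Crct1 (0.85), and Lynx1 had Tmbim1 (0.88), Anxa2 (0.86) and Afdn (0.86). Lypd2 was too sparse for the measure to be read.

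The founding populations were compared first over all cells of each library, where a difference can come from the level within a layer or from the share of each layer. None of the 7 tested members passed an adjusted p of 0.05 (limma with Benjamini-Hochberg adjustment over 11645 genes), a threshold that 0.163% of genes passed, 19 higher and 0 lower in Cyto-ID High. At an unadjusted p under 0.05, 941 genes passed, of which 1 was a member, Ly6g6c. Fold changes are log2 of High over Low on the scale of CPM divided by a library factor (trimmed mean of M values, TMM) plus 1. Without that factor the median over all genes moved by -0.10 over all cells and by up to -0.21 in the classes below (suprabasal-like), and the members' fold changes moved with it. Levels, pair ratios and overlaps below are in CPM before that factor is applied. Where a separation reported for a member changes once it is applied this is said, from a check added after the data were seen.

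Psca had the largest difference in mean CPM of the set, with pairs that went opposite ways. Its level was 15106, 9033 and 25016 CPM in Low F2, M3 and F6, and 7335, 15083 and 3164 CPM in High F2, M3 and F6. It was lower in Cyto-ID High in the pairs F2 and F6, at 0.486 and 0.126 of the Low library, and higher in the pair M3, at 1.67 times, so that the groups overlapped. The log2 fold change was -0.98 (SE 0.65, adjusted p = 0.72). The cells of the Sprr2f and Il33 clusters, where Psca is high, made up 20.5% and 15.2%, 8.88% and 13.9%, and 12.9% and 22.8% of Low F2, M3 and F6. In High F2, M3 and F6 they made up 12.1% and 10.2%, 9.15% and 10.9%, and 3.79% and 11.6%. With every cluster but Ifit3b held at its mean share over the 6 libraries, a weighting chosen after the data were seen, the fold change of Psca was -0.25. At the libraries' own shares and with 1 library left out it ran from -1.58 (without High M3) to -0.46 (without High F6).

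Ly6g6c was higher in each High library than in every Low library. It was 14.2, 16.1 and 15.4 CPM in Low F2, M3 and F6, and 17.1, 69.0 and 27.7 CPM in the High libraries, where M3 stood far above the others. Such a separation towards Cyto-ID High was seen in 4.48% of all genes. With the library factors applied the groups overlapped, at 15.6 in High F2 against 15.9 in Low F6, and all 3 pairs remained higher. In the fit its log2 fold change was 1.14 (SE 0.47, adjusted p = 0.61), and 0.55 without High M3. The Calm4 cluster, where its level was highest, made up 2.34%, 3.74% and 1.91% of the Low libraries and 9.27%, 14.9% and 12.2% of the High libraries. With the clusters held at their mean shares, as for Psca, the fold change was 0.41.

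Lypd3, whose level was highest in the same cluster, was 137, 178 and 174 CPM in Low F2, M3 and F6 and 172, 237 and 218 CPM in High F2, M3 and F6. It was higher in all 3 pairs, by 1.25, 1.33 and 1.25 times, as were 12.2% of genes, although the lowest High library lay within the Low range. High over Low gave a log2 fold change of 0.47 (SE 0.27, adjusted p = 0.68), and 0.25 with the clusters held at their mean shares.

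Ly6e over all cells was lower in each High library than in every Low library, which was not so in superficial-like cells (below). It was 602, 533 and 935 CPM in Low F2, M3 and F6, with F6 standing apart, and 497, 441 and 457 CPM in High F2, M3 and F6. Of all genes, 8.13% were separated in this direction. With the library factors applied the groups overlapped, at 504 in High F6 against 499 in Low M3, and all 3 pairs remained lower. The log2 fold change was -0.41 (SE 0.30, adjusted p = 0.75), and -0.14 without Low F6. The summed level of 28 interferon-stimulated genes was 624, 414 and 362 CPM in the Low libraries and 348, 261 and 141 CPM in the High libraries, with the highest library F2 rather than F6. The part of these genes in the difference of Ly6e was not tested. The Igfbp2 cluster, lowest in Ly6e, made up 3.98%, 3.85% and 2.02% of Low F2, M3 and F6. In High F2, M3 and F6 it made up 13.5%, 13.2% and 12.3%. The Calm4 cluster, next lowest, also had larger shares in the High libraries, as given above for Ly6g6c. Over all cells these shares and the level within clusters are not separated.

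Lynx1 was lower in Cyto-ID High in all 3 pairs, as were 30.2% of genes, with 27.1, 32.3 and 53.1 CPM in Low F2, M3 and F6 and 20.1, 31.6 and 24.1 CPM in High F2, M3 and F6. With the library factors applied the pair M3 turned, at 30.2 in Low against 35.4 in High. The log2 fold change of Lynx1 was -0.40 (SE 0.33, adjusted p = 0.77), and -0.095 without Low F6. Ly6a, at 1469, 1120 and 1529 CPM against 1058, 1218 and 907 CPM, was lower in 2 of 3 pairs (-0.25, SE 0.29, adjusted p = 0.84, and -0.41 without Low M3 to -0.13 without Low F6). Ly6d, at 3609, 4757 and 5129 CPM against 4023, 6111 and 4190 CPM, was higher in 2 of 3 pairs (0.19, SE 0.38, adjusted p = 0.92), and its sign turned without High M3. The groups overlapped for each of these 3 genes.

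**Figure D3:**
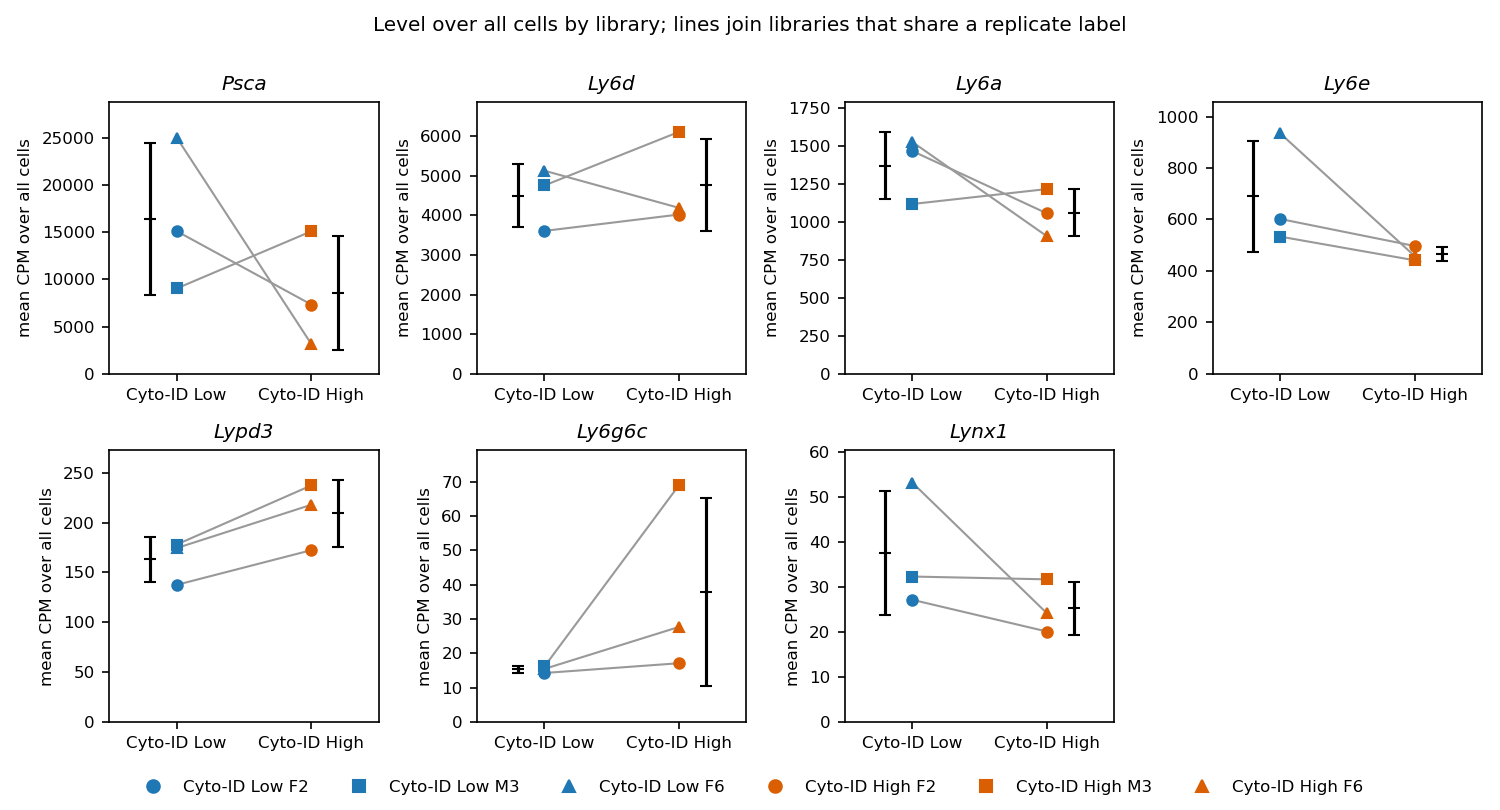
Mean CPM over all cells of 7 members in each library, Cyto-ID Low (blue) beside Cyto-ID High (orange), with a grey line between libraries of the same replicate label and black bars for the mean ± SD of 3 libraries. The lines for Lypd3 rise and those for Ly6e and Lynx1 fall in all 3 pairs, that of Lynx1 M3 turning once the library factors are applied, while the M3 line of Psca rises and the others fall.

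The same comparison was then made within each layer. In basal-like cells none of the 7 tested members passed the threshold, which 0.25% of 11615 genes did, and 808 genes had an unadjusted p under 0.05. Lypd3 came nearest. It was 52.5, 59.5 and 54.2 CPM in the basal-like cells of Low F2, M3 and F6, and 89.0, 93.6 and 92.5 CPM in those of High F2, M3 and F6. Each High library thus lay above every Low library by a gap larger than the spread within either group, a separation towards Cyto-ID High found in 3.48% of genes. It remained with the library factors applied, at 46.9 to 55.1 against 83.8 to 108. The 13 suprabasal markers used to name clusters were separate in the same direction in these cells, with a sum of 1474, 1813 and 1390 CPM in Low F2, M3 and F6 and 2458, 3048 and 2713 CPM in High F2, M3 and F6. Their part in the differences of Lypd3 and, below, Ly6d was not tested. The log2 fold change of Lypd3 was 0.89 (SE 0.20, adjusted p = 0.20).

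With the replicate label as a block, the SE of Lypd3 fell to 0.17 and the call passed (adjusted p = 0.046), in a fit that called 1.02% of genes. In the Btn1a1 cluster alone Lypd3 was 49.4, 56.2 and 49.2 CPM against 72.0, 84.4 and 88.4 CPM (0.80, SE 0.23, adjusted p = 0.998). In the Igfbp2 cluster it was 82.1, 110 and 78.7 CPM against 133, 124 and 125 CPM (0.77, SE 0.24, adjusted p = 0.58). The groups were separate in both, where 2.35% and 4.49% of genes were so in this direction in CPM. They remained separate with the library factors applied. In the U90926 cluster they overlapped, at 49.2, 50.7 and 59.6 CPM against 64.2, 56.0 and 48.3 CPM. The Igfbp2 cluster, which had the highest basal-like level of Lypd3, made up 3.98%, 3.85% and 2.02% of the Low libraries and 13.5%, 13.2% and 12.3% of the High libraries.

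Ly6d was also higher in each High library in basal-like cells, with 1773, 1541 and 2602 CPM in Low F2, M3 and F6 and 2747, 2914 and 2640 CPM in High F2, M3 and F6. The groups did not overlap in CPM, as in 3.48% of genes in this direction. The libraries of the pair F6 stood at a ratio of 1.01, and the groups overlapped with the library factors applied. This gave a log2 fold change of 0.70 (SE 0.32, adjusted p = 0.72). Psca in basal-like cells was 450, 395 and 905 CPM against 154, 559 and 46.6 CPM (-1.59, SE 0.73, adjusted p = 0.71). Without High M3 its fold change was -2.51 (SE 0.44, adjusted p = 0.039) in a fit that called 0.383% of genes, and without High F6 it was -0.78. High M3 thus decided the call. Ly6a, Ly6e, Ly6g6c and Lynx1 had log2 fold changes of -0.031, -0.36, 0.53 and -0.32 there, and their groups overlapped in CPM. With the library factors applied those of Ly6g6c no longer did, at 1.12 to 2.06 against 2.09 to 4.67. These levels rest on 87 UMIs in all, and the share of all genes separate on that scale was not computed. Without Low F6 the value of Ly6e was -0.020, that of Lynx1 -0.049 and that of Ly6a 0.27, and without High M3 that of Ly6g6c was 0.25.

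In suprabasal-like cells, the Calm4 cluster, 0.0189% of 10564 genes passed the threshold and none of the 7 tested members did. At an unadjusted p under 0.05, 690 genes passed, among them Psca and Ly6e. Psca was 1900, 3449 and 10083 CPM in Low F2, M3 and F6, and 132, 2091 and 138 CPM in High F2, M3 and F6. It was lower in Cyto-ID High in all 3 pairs, at 0.0696, 0.606 and 0.0137 of the Low library, as were 23.6% of genes, although High M3 lay within the Low range. The log2 fold change was -3.33 (SE 0.98, adjusted p = 0.67), and -4.71 without High M3 (SE 0.54, adjusted p = 0.013), a fit that called 0.0967% of genes. This cluster held 83, 210 and 51 cells in Low F2, M3 and F6, against 404 to 668 in the High libraries. The 15 superficial markers were separate in the same direction as Psca in this cluster, with a sum of 5808, 5863 and 8066 CPM in Low F2, M3 and F6 and 1542, 2811 and 2702 CPM in High F2, M3 and F6, and their part in the difference was not tested.

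The mean of Psca there rested on a minority of cells. The median cell of the Calm4 cluster had 245, 303 and 977 CPM of Psca in Low F2, M3 and F6 and 72.2, 309 and 0 CPM in High F2, M3 and F6. One cell in 10 had more than 1972, 1636 and 15788 CPM in the Low libraries and more than 210, 1148 and 303 CPM in the High libraries. In the Btn1a1 cluster Psca was 491, 387 and 901 CPM against 179, 453 and 43.0 CPM, with Low F6 the highest Low library and High M3 the highest High library in both clusters. The part of free RNA in these differences was not tested.

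Ly6e in suprabasal-like cells was 204, 239 and 673 CPM in Low F2, M3 and F6 and 95.9, 119 and 181 CPM in High F2, M3 and F6. The groups did not overlap and the pairs stood at 0.471, 0.495 and 0.269 of the Low library. High over Low gave a log2 fold change of -1.08 (SE 0.43, adjusted p = 0.74), and -0.57 without Low F6. Ly6a, at 533, 496 and 659 CPM against 457, 484 and 425 CPM, and Lynx1, at 36.1, 34.8 and 35.6 CPM against 14.1, 30.6 and 24.3 CPM, were also separate towards Cyto-ID Low, as were 11.5% of genes. With the library factors applied the groups of Ly6e, Ly6a and Lynx1 overlapped, and the log2 fold changes of Ly6a and Lynx1 were -0.050 (SE 0.25) and -0.43 (SE 0.38), with 0.044 for Ly6a without Low F6 and -0.051 for Lynx1 without High F2. Lypd3 was higher in all 3 pairs there, as were 10.7% of genes, by 1.05 to 1.32 times, and its groups overlapped. Ly6g6c, with the library values given above, and Ly6d, at 6449 to 9152 CPM, overlapped between the groups (-0.34, SE 0.49, and 0.088, SE 0.42). The sign of Ly6d turned there without the library factors and without High M3 (-0.12). Ly6g6c ran from -0.94 without High M3 to 0.065 without High F2.

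In superficial-like cells 0.00926% of 10797 genes passed the threshold and none of the 7 tested members did, with 196 genes at an unadjusted p under 0.05. Ly6g6c was the member among these. It was 16.3, 30.1 and 30.9 CPM in Low F2, M3 and F6 and 34.4, 106 and 87.7 CPM in High F2, M3 and F6, without overlap, as were 3.32% of genes in this direction. On the log2 scale the change was 1.42 (SE 0.48, adjusted p = 0.999). In the Il33 cluster alone it was 19.0, 26.1 and 29.2 CPM against 35.0, 118 and 97.2 CPM (1.60, SE 0.49, adjusted p = 0.999), where 3.09% of genes were separate in this direction. In the Sprr2f cluster it was 14.2, 36.4 and 33.9 CPM against 33.9, 92.4 and 58.6 CPM (0.96, SE 0.49, adjusted p = 0.995, and 0.51 without High M3), and the groups overlapped. With the library factors applied the groups overlapped in all of these, and all 3 pairs remained higher. In CPM the 15 superficial markers went the other way, towards Cyto-ID Low, in superficial-like cells. They summed to 27664, 20793 and 23264 CPM in the Low libraries and 20680, 18975 and 14945 CPM in the High libraries. With the library factors applied these sums overlapped between the groups, and the pair M3 turned. In CPM they were separate towards Cyto-ID Low in the Il33 cluster too, at 14523 to 18608 against 11770 to 13909 CPM. The same held in the Sprr2f cluster, at 29809 to 37403 against 22528 to 28201 CPM. The factors were not applied to the sums of either cluster. The part of these markers in the difference of Ly6g6c was not tested.

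Psca in its main site showed no such separation. Over the superficial-like cells its log2 fold change was -0.41 (SE 0.78, adjusted p = 0.999), and -1.0 without High M3, -0.078 without Low F6 and close to 0 without High F6. In the Sprr2f cluster, with the library values given above, it was -0.43 (SE 0.91, adjusted p = 0.995), with High M3 at 1.72 times and High F6 at 0.383 of the Low library of its pair, with -0.95 without High M3 and a value close to 0 without Low F6. Ly6a in the Sprr2f cluster had -0.43 (SE 0.44, adjusted p = 0.995), with High F6 the lowest library, and -0.089 without it. Ly6e in superficial-like cells was 768, 815 and 995 CPM in Low F2, M3 and F6 and 921, 823 and 829 CPM in High F2, M3 and F6. It was higher in Cyto-ID High in the pairs F2 and M3 and lower in F6, as in the Il33, U90926 and Krt12 clusters.

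In proliferating-like cells 0.12% of 11648 genes passed the threshold and none of the 7 tested members did, with 909 genes at an unadjusted p under 0.05. Psca was 595, 389 and 821 CPM in Low F2, M3 and F6 and 166, 560 and 119 CPM in High F2, M3 and F6 (-1.19, SE 0.50, adjusted p = 0.61). The groups overlapped through M3 and, without High M3, the fold change was -1.85 (SE 0.30, adjusted p = 0.017) in a fit that called 0.469% of genes. Ly6e was 453, 447 and 904 CPM against 301, 358 and 346 CPM, without overlap in CPM, as were 11.8% of genes in this direction, and with overlap once the library factors were applied (-0.58, SE 0.33, adjusted p = 0.70, and -0.20 without Low F6). Lypd3 was 83.9, 92.8 and 81.9 CPM against 102, 87.4 and 96.4 CPM (0.32, SE 0.21, adjusted p = 0.74), with groups that overlapped in CPM and were separate once the library factors were applied. The share of all genes separate on that scale was not computed. The suprabasal markers summed to 1945 to 2566 CPM in the Low and 3017 to 3127 CPM in the High libraries there, and the superficial markers to 1511 to 1871 CPM and 609 to 862 CPM. In basal-like cells the superficial markers summed to 1092 to 1534 CPM in the Low and 631 to 992 CPM in the High libraries. The part of these markers in the differences of Lypd3 and Psca was not tested.

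**Figure D4:**
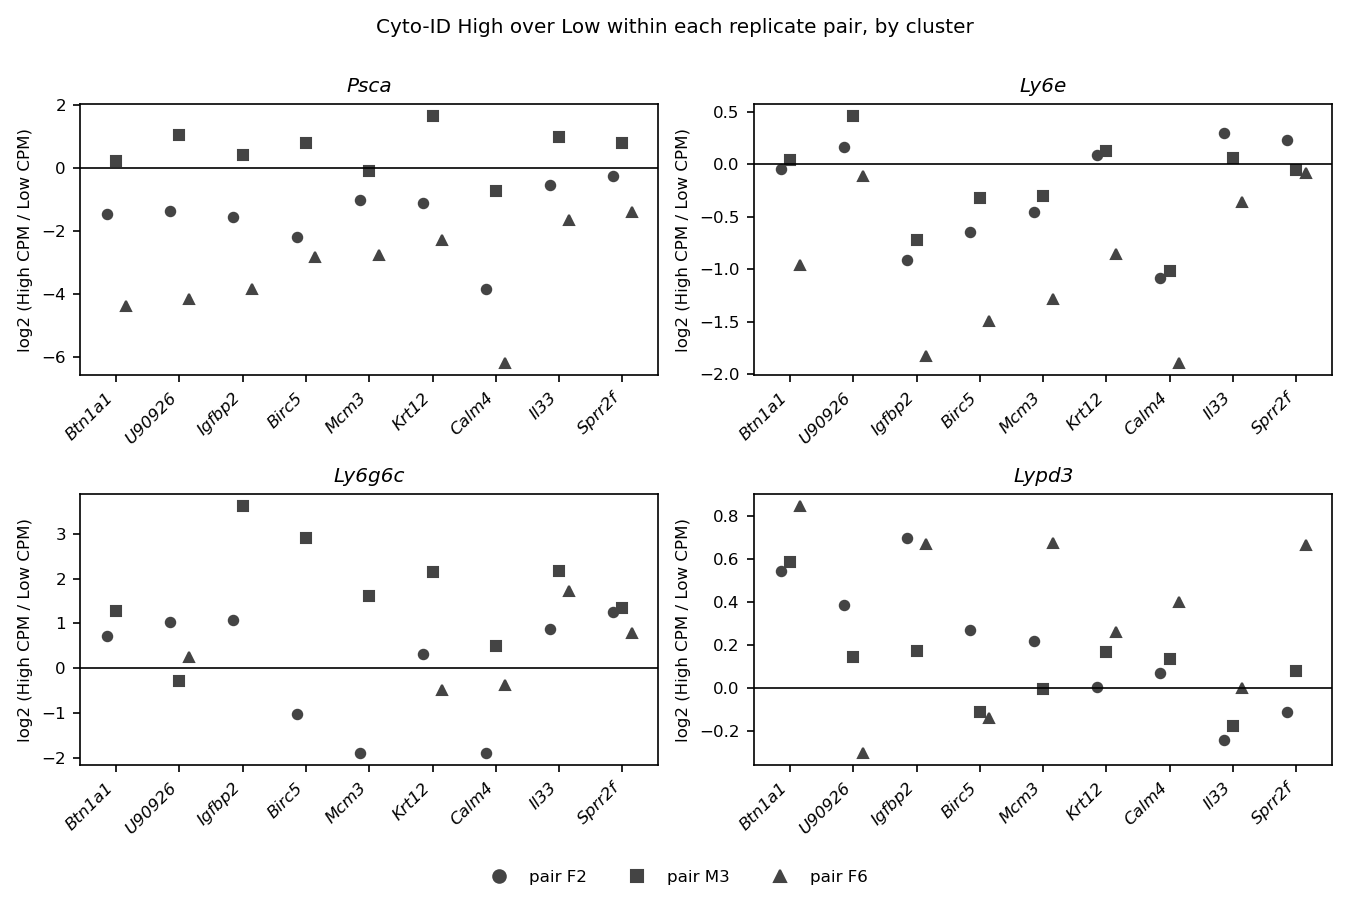
Log2 of High CPM over Low CPM within each pair (circle F2, square M3, triangle F6) for 4 members in each of 9 clusters; pairs in which a library is at 0 are not drawn, which concerns Ly6g6c. The Lypd3 points are all above 0 in the Btn1a1, Igfbp2, Krt12 and Calm4 clusters, by as little as 273 against 274 CPM for the pair F2 in Krt12, and all below 0 in the Il33 cluster, where M3 and F6 turn once the library factors are applied, and the Psca points of the pair M3 lie above those of F2 and F6 in every cluster drawn.

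The other Ly6/uPAR genes were taken from a list of 42, of which 40 were in the table and 10 passed the filter. In the comparison over all cells 1 of the 10 was higher in Cyto-ID High, 0 were lower (0.163% of all genes passed), and the median log2 fold change was 0.14, against 0.0048 over all genes. The gene was Slurp1, whose secreted product is a ligand of nicotinic receptors and is lost in the skin disease mal de Meleda. It lies between Psca and Lypd2 at chr15:74724318-74728034. Its level was 0.120, 1.52 and 0.479 CPM in Low F2, M3 and F6 and 7.13, 8.83 and 4.43 CPM in High F2, M3 and F6, from 587 UMIs in all. Each High library was above every Low library, with and without the library factors, as were 4.48% of all genes without them, and the log2 fold change was 2.30 (SE 0.33, adjusted p = 0.049). The call did not hold under most other settings, as given in the closing section, and the gene overlaps Them6 on the opposite strand by 322 bases.

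Within clusters, Slurp1 was highest in the Calm4 cluster, at 0, 11.5 and 3.53 CPM in the Low libraries and at least 16.2 CPM in each High library, and in the Il33 cluster, at 0.0915, 3.48 and 0.468 CPM and 15.6, 25.7 and 9.99 CPM. It was 0 in all 3 Low libraries of the Sprr2f cluster. The most abundant other family gene was Pinlyp, an inhibitor of phospholipase A2, at 30.5, 74.4 and 46.5 CPM against 51.0, 163 and 78.0 CPM over all cells (0.97, SE 0.49, adjusted p = 0.65). It was higher in all 3 pairs with overlapping groups, and its highest level was in the Calm4 cluster, 228 to 506 CPM. Ly6k, Lypd6b and the urokinase receptor gene Plaur had log2 fold changes of 0.0066, 0.63 and -0.32 (adjusted p = 0.996, 0.611 and 0.907).

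Within the 4 layers none of the other family genes passed the threshold (limma). In basal-like cells 4 of the 8 tested were higher in Cyto-ID High at an unadjusted p under 0.05, as were 4.08% of all genes, and 0 were lower. These were Ly6c1, named here after its value was seen, Lypd6b, Pinlyp and Slurp1, with log2 fold changes of 1.45, 0.70, 1.27 and 1.60 (adjusted p = 0.25, 0.68, 0.55 and 0.36). With the replicate label as a block Pinlyp passed there (adjusted p = 0.027), in the fit that called 1.02% of genes. Slurp1 in superficial-like cells had a log2 fold change of 2.82 (SE 0.46, adjusted p = 0.63), and passed with the block (adjusted p = 0.029), a fit that called 0.0463% of genes. In the Il33 cluster it was 3.15 (SE 0.55, adjusted p = 0.70), and passed with the block (adjusted p = 0.00085), where 0.0731% of genes did.

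Genes that act with the family were taken from 4 more lists, of which no member passed the threshold over all cells (limma). Of all genes, 8.08% had an unadjusted p under 0.05. Of 16 nicotinic receptor subunit genes 1 passed the filter, Chrnb1, at 1.86 to 4.17 CPM (log2 fold change -0.016). All 27 measured genes of GPI anchor synthesis and attachment were tested, with a median of 0.063 and 2 higher at an unadjusted p under 0.05. Of the urokinase system and named partners 7 were tested, with a median of -0.27 and 0 at that level. Lgals3, a galectin, was the most abundant of these at 1045 to 2771 CPM (-0.39, SE 0.40). Of the interferon-stimulated genes 23 were tested, with a median of -0.56, 7 lower and 1 higher at that level. Isg15, a ubiquitin-like modifier, was the most abundant of these, at 121, 75.6 and 55.5 CPM against 62.4, 35.2 and 20.1 CPM (-1.04, SE 0.37, adjusted p = 0.56).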

How the data were processed

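The 6 libraries of dissociated organoids were analysed, 3 per sorted population. Reads were processed with Cell Ranger 6.0.0 and Seurat 4 against mm10 (GRCm38), per the submitters' processing notes. Use of strand in counting is not given in the sources used here. The deposited values are the natural log of 1 plus a cell's UMIs scaled to 10000, as the values themselves show. Reversing this gave whole UMIs for 100% of values (tolerance 1e-06), and each cell's UMIs were rescaled to counts per 1000000 (CPM). A cell depth of 1940.5 to 10038 UMIs limits detection of genes at a few CPM.

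Cells with 500 or more detected genes were clustered with Seurat 5.3.0 in R 4.3.3 (2000 variable genes without the 8 members, 6 of which would have been among them, 30 principal components, integration by reciprocal PCA over libraries, resolution 0.5). Doublets were not called. Clusters were named from fixed markers. The mean CPM over cells of each library, or of each class with at least 50 cells in every library, was divided by TMM factors and compared as log2(CPM + 1) with limma 3.58.1 (trend, moderated test), for genes with at least 1 CPM in 3 libraries, with Benjamini-Hochberg adjustment over all genes tested and a threshold of 0.05. The design foresaw this test. The fit was tested on simulated library totals only, with a fixed spread that was not taken from these libraries. Cells, clusters and pairs were not simulated.

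All 8 members are named, with the 3 genes of highest r for each, and up to 4 genes of highest mean CPM of each other list. The members and lists were chosen with earlier results of these data known. Deviations from group means correlated at 0.76, 0.58 and 0.15 between libraries labelled F2, M3 and F6 (8878 genes), each over 0.1, so the replicate labels were taken to pair the libraries. Low F2 with High F6 gave 0.17, above the F6 pair, so the pairing of F6 is weakly borne out. The main comparison has no replicate block, and the fit with it was an alternative. Other alternatives were the pseudocount, the filter, no TMM factors, summed UMIs, 1000 detected genes, cells thinned to 1000 UMIs, other clusterings, fixed class or cluster shares and each library left out.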

Additional observations from a re-analysis of the deposited data

Results flagged for a closer look

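Lypd3 differed in opposite directions in different clusters in CPM before scaling: every pair was lower in Cyto-ID High in the Il33 cluster, as were 16.4% of genes, and every pair was higher in the Btn1a1, Igfbp2, Calm4 and Krt12 clusters. In the Calm4 cluster 10.7% of genes were higher in every pair, and shares for the other clusters are not given here. The mean log2 ratio of High over Low exceeded that of the Il33 cluster by 0.80 in Btn1a1, 0.65 in Igfbp2, 0.34 in Calm4 and 0.285 in Krt12. Clusters were flagged, for the members only, where every pair was higher in one and lower in the other. Each excess is therefore above 0 by construction. In the Il33 cluster Lypd3 was 312, 366 and 358 CPM in Low F2, M3 and F6 and 263, 323 and 357 CPM in High F2, M3 and F6, and in Krt12 it was 273, 276 and 318 CPM against 274, 309 and 381 CPM. The difference between clusters was not tested. In the Il33 cluster the direction holds in CPM only: with the TMM factors applied, M3 was 360 in Low against 362 in High and F6 was 386 against 391, so that the F2 pair alone remained lower (283 against 223).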

How the results depend on the processing

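For 27 values 378 alternatives were computed, and 356 were labelled as kept. For a fold change this means the same direction and side of the threshold, and for a count of members called the same count. The layers of the members were not rated and entered as kept. Among them Lypd2, close to absent, moved from superficial-like to suprabasal-like at resolution 1. With the replicate block 1 member, Lypd3, was called in basal-like cells (log2 fold change 0.89, adjusted p = 0.046), and the block changed no other member's call. Without that block the adjusted p of Lypd3 was 0.0998 to 0.84 over its other alternatives, and its fold change 0.82 to 1.00 with 1 library left out. Leaving out each library in turn gave 0 to 1 members called in basal-like, in suprabasal-like and in proliferating-like cells, where the 1 was Psca without Cyto-ID High M3 (-2.51, -4.71 and -1.85, adjusted p = 0.039, 0.013 and 0.017). Psca was also called then in the Birc5 and Mcm3 clusters (-1.93 and -1.62). The sign of Ly6d over all cells turned without Cyto-ID High M3 (-0.051, range -0.051 to 0.395). The cause was not tested.

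The call of Slurp1 (2.30, adjusted p = 0.049) was kept with the block and without TMM factors. It was lost with a pseudocount of 0.1 CPM (3.585, adjusted p = 0.14), no filter (2.29, 0.34), summed UMIs (2.20, 0.083), 1000 detected genes (2.03, 0.18), thinned cells (2.55, 0.051), fixed class shares (2.16, 0.15) and fixed cluster shares (2.15, 0.25, chosen after seeing the data). It was also lost when any library but Cyto-ID Low M3 was left out (2.03 to 2.51, against 2.59 without Low M3, where it was kept).

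Counts of genes called moved by over 1.5 times in several fits. Over all cells 19 became 64 with the block, 5 with the lower pseudocount, 0 without the filter, and 4 and 2 at fixed class and cluster shares. In basal-like cells 29 became 119, 18, 0 and 14 with the block, the lower pseudocount, no filter and 1000 detected genes. In proliferating-like cells 14 became 28, 8 and 0 with the first 3 of these settings, and in superficial-like cells 1 became 5, 0 and 0. In suprabasal-like cells 2 became 4 without TMM factors, 1 with summed UMIs and 0 with thinned cells. With 1 library left out the counts ran from 6 to 17 over all cells, 5 to 44 in basal-like, 0 to 10 in suprabasal-like, 0 to 1 in superficial-like and 4 to 54 in proliferating-like cells. The 44, 10 and 54 were without Cyto-ID High M3, the fits in which Psca was called. Fits that would leave a library under 50 cells were not run: suprabasal-like cells with 1000 detected genes or with members among the clustered genes, and the U90926, Sprr2f, Igfbp2 and Calm4 clusters with 1000 detected genes.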
